A study of Mus musculus with 2 samples.

Results

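Cxcl1, Cxcl2 and Cxcl5 encode secreted CXC chemokines that attract neutrophils, and Cxcr2 encodes the receptor through which they act. These 4 genes, listed by name, are the subject here, out of 32285 genes in the files, and each was found once by its symbol in both single-cell RNA libraries of injured mouse kidney. They were followed through cell classes named from marker genes, with the tubule segments kept apart as possible sources.

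CXCL1, CXCL2 and CXCL5 carry a glutamate-leucine-arginine motif ahead of the CXC cysteines, which marks the members of the family that bind CXCR2. CXCR2 is a G-protein-coupled receptor on circulating neutrophils, and its ligands draw these cells out of the blood and toward a gradient. In ischemic kidney the ligands are known from stressed tubule epithelium, endothelium and resident or recruited macrophages, where IL-1, TNF and IL-17 signalling through NF-κB raises their transcription and stabilises their short-lived mRNAs.

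Both groups came from kidney on day 14 after unilateral ischemia reperfusion injury (the renal artery of one side clamped, then released), and both had 4 injections of tamoxifen, the drug that switches on CreERT2. The control was Cre-, and whether it carried the floxed allele is not stated. The haplodeficient group was Cdh5-CreERT2; Phd3f/+, in which the endothelial Cdh5 promoter drives Cre and 1 allele of Phd3 (Egln3), an oxygen-sensing prolyl hydroxylase, is floxed. Each group is 1 library, both are labelled batch 1, and the number of animals behind a library is not stated. With 1 library per group there is no test between the groups: every interval below covers counting error only, and genotype, animal and library cannot be told apart.

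The control library held 8737 retained cells (median 8796 UMIs per cell, median mitochondrial share 10.1%) and the haplodeficient library 9222 (median 5482.5 UMIs, 2.69%), where a UMI is 1 counted mRNA molecule. The 51 clusters gave 19 named classes, of which 16 had at least 50 cells in each library and were compared. Class names stand for cells like the named type by their markers. One class found by podocyte markers had little Nphs1 (27.5 CPM in the control and 30.3 CPM in the haplodeficient library, where CPM are its UMIs per 1000000 UMIs of the class), and was led by Wnt16 and Wt1, so it is called the Wt1-led class. Of the retained cells, 23 barcodes were shared by the libraries. The makeup of the libraries differed: proximal tubule held 35.1% of control and 4.11% of haplodeficient cells, neutrophils 1.18% and 6.69%, and T cells 2.05% and 11.3%, shares that capture as well as tissue can set. Egln3 in endothelial cells had 57 UMIs (25.9 CPM) in the control and 92 (20.2 CPM) in the haplodeficient library, a ratio of 0.782 (95% interval 0.556 to 1.11). In neutrophils it had 33 UMIs (199.9 CPM) against 82 (69.4 CPM). These 3′ reads may lie outside the deleted part, which the labels do not describe.

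The genes of the 3 ligands lie in one cluster on mouse chromosome 5 (mm10, GRCm38). Cxcl5 spans chr5:90759360-90761624, Cxcl1 chr5:90891241-90893115 and Cxcl2 chr5:90903871-90905938, all on the + strand, with Ppbp, Pf4, Cxcl3 and Cxcl15 between Cxcl5 and Cxcl1. Cxcr2 lies on chromosome 1 (chr1:74153989-74161246, + strand). Since Cxcl1 and Cxcl2 were detected together in some tubule cells and macrophages (below), their proximal promoters are shown, 110 bases each ending just before the gene start of the GENCODE annotation, read from the RefSeq table for GRCm38.p6. The NF-κB consensus was searched by that name on both strands, and capitals mark GGGAATTTCC, the match to it that both promoters hold.
Cxcl1, chr5:90891131-90891240: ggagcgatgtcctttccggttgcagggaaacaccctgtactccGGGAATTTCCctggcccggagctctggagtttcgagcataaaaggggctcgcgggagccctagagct
Cxcl2, chr5:90903761-90903870: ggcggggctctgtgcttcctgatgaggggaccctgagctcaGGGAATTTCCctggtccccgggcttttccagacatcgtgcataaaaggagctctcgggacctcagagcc
The site begins 67 bases before the end of the Cxcl1 stretch and 69 before that of Cxcl2. RefSeq places the starts 4 and 28 bases further along, so that the site begins 71 and 97 bases before the RefSeq starts. The longest run that both stretches share, GGGAATTTCCCTGG, is 14 bases long and contains it. Among 32851 promoter windows of 300 bases, 29 (0.0883%) held the same 10 letters on either strand. The consensus itself was found in 2779 windows (8.46%). The window of the neighbour Cxcl3 was one of the 29 with the same 10 letters, which begin 73 bases before its RefSeq start. The windows of Cxcr2, Cxcr1, Ppbp, Pf4 and Cxcl15 held no match to the consensus. No window was available for Cxcl5, so its promoter was not searched. A match of letters is a description and not a measured binding site.

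Over all retained cells, Cxcl2, Cxcl5 and Cxcr2 were higher in the haplodeficient library and Cxcl1 was nearly level. Cxcl1 stood at 98.8 CPM in the control against 109 in the haplodeficient library, a ratio of 1.11 (1.08 to 1.14). Cxcl2 stood at 202 and 829 CPM, a ratio of 4.11 (4.05 to 4.17). Cxcl5 stood at 11.6 and 39.7 CPM, a ratio of 3.42 (3.21 to 3.65). Cxcr2 stood at 1.19 CPM on 128 UMIs and 7.77 CPM on 729 UMIs, a ratio of 6.53 (5.40 to 7.94). With both libraries given the same mean class makeup, the ratios were 1.5 for Cxcl1, 1.66 for Cxcl2, 2.56 for Cxcl5 and 0.892 for Cxcr2. The library-wide excess of Cxcr2 was thus absent at equal makeup, those of Cxcl2 and Cxcl5 were smaller, and the small one of Cxcl1 was larger.

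**Figure D1:**
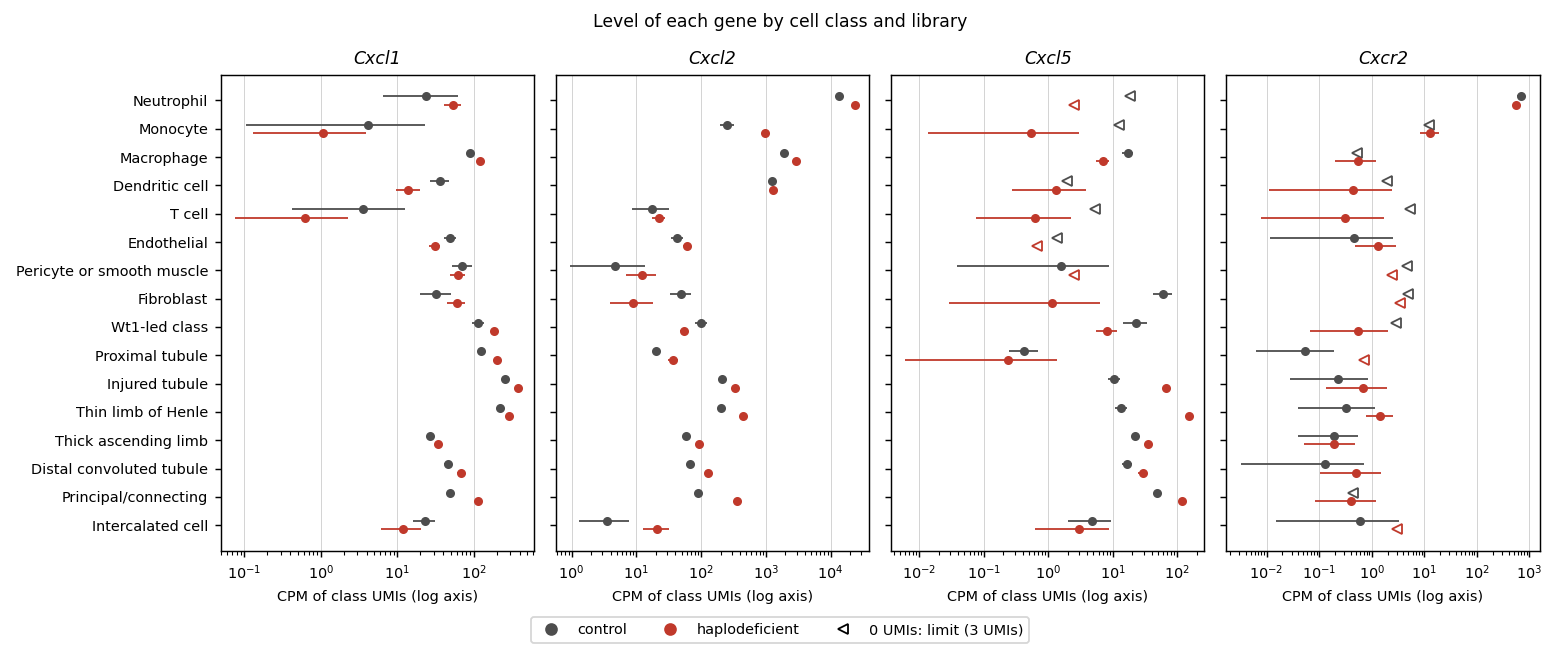
Level of each gene (CPM of the UMIs of a class, log axis) in the 16 compared classes of the control (grey) and haplodeficient (red) library; bars are exact Poisson 95% intervals and open triangles mark classes with 0 UMIs at the level 3 UMIs would give. Cxcl1 is spread over epithelial classes, Cxcl2 is highest in neutrophils and other myeloid classes, Cxcl5 is in tubule classes and Cxcr2 is highest in neutrophils.

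Cxcl1 was an epithelial transcript in both libraries, highest in the Havcr1-led injured tubule class. Havcr1, which encodes KIM-1, marks damaged tubule cells. Injured tubule cells had 259 CPM (249 to 270; 2225 UMIs in 220 of 499 cells) in the control and 385 CPM (367 to 403; 1729 UMIs in 84 of 259 cells) in the haplodeficient library. Thin limb of Henle followed with 220 and 290 CPM, and proximal tubule, the main reabsorbing segment and the usual site of ischemic damage, with 124 and 202 CPM. The clusters of proximal tubule differed in their weight: the S3-like Kap-led, Sox2ot-led and Akr1c18-led clusters held 445, 709 and 67 of 3069 control cells and 8, 48 and 10 of 379 haplodeficient cells. Cxcl1 stood at 136 and 203 CPM in the S1/S2 cluster, 163 and 299 CPM in the Sox2ot-led cluster and 30.8 and 32.7 CPM in the Spp2-led cluster, and with equal cluster weights the log2 ratio of the class was 0.71 in place of 0.68. The Wt1-led class had 115 and 188 CPM and macrophages 91.1 and 123 CPM. Principal or connecting tubule cells, which regulate sodium and water in the collecting system, had 49.9 CPM (340 UMIs) and 113 CPM (834 UMIs), a ratio of 2.27 (1.99 to 2.58). Distal convoluted tubule had 45.8 and 68.1 CPM. T cells and monocytes were at the bottom of the order, with at most 2 UMIs of Cxcl1 per library in either class. In the order of the control, the intervals of proximal tubule and the Wt1-led class overlapped, as did those of macrophages and pericytes and those of principal or connecting tubule, endothelium and distal convoluted tubule.

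Endothelial cells, the class in which the Cre driver acts, had less Cxcl1 in the haplodeficient library: 49.5 CPM (109 UMIs in 45 of 349 cells) against 31.2 CPM (142 UMIs in 78 of 761 cells), a ratio of 0.631 (0.488 to 0.817). Arterial endothelium had 95.4 and 62.3 CPM, with a ratio interval of 0.404 to 1.05. Dendritic cells also had less, at 36.2 CPM on 55 UMIs and 14.1 CPM on 32 UMIs, but this direction depended on the clustering, since the log2 ratio was -1.11 as given and 0.47 with finer clusters.

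Cxcl2 was foremost a myeloid transcript. Neutrophils, short-lived phagocytes marked here by S100a8, S100a9 and Csf3r, had 13588 CPM (2243 UMIs in 93 of 103 cells) in the control and 23598 CPM (27872 UMIs in 549 of 617 cells) in the haplodeficient library, a ratio of 1.74 (1.66 to 1.81). Macrophages had 1899 and 2922 CPM, a ratio of 1.54 (1.51 to 1.57). Dendritic cells stood at 1250 and 1313 CPM, a ratio of 1.05 whose interval (0.991 to 1.11) included 1. Monocytes had 255 CPM (61 UMIs in 18 of 53 cells) and 964 CPM (1771 UMIs in 143 of 372 cells), a ratio of 3.78 (2.93 to 4.97). In macrophages the higher level was seen in the Ccl12-led cluster (2356 and 3530 CPM), in the Gpnmb cluster, which carries the lipid-handling genes Trem2 and Fabp5 (1753 and 2994 CPM), and in the dividing cluster (1110 and 1622 CPM).

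The monocyte difference came with others of neutrophil and stress genes. S100a9, a neutrophil granule-associated calcium binder, had 0 UMIs in control monocytes and 438 CPM in haplodeficient ones, and S100a8 50.1 and 347 CPM. The summed level of the 10 neutrophil markers was 322 CPM with 4 of them at 0 in control monocytes, and 1537 CPM with 1 at 0 in haplodeficient ones. Atf3, an early stress factor, had 96.1 and 382 CPM. The part of neutrophil RNA or of early stress in the Cxcl2 of monocytes was not tested.

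Tubule cells carried Cxcl2 too, with the largest ratios in principal or connecting tubule and in thin limb. Thin limb cells had 206 CPM (1277 UMIs in 96 of 373 cells) and 452 CPM (4012 UMIs in 197 of 680 cells), a ratio of 2.20 (2.06 to 2.34). Principal or connecting tubule cells had 89.8 CPM (612 UMIs in 78 of 563 cells) and 360 CPM (2658 UMIs in 153 of 663 cells), a ratio of 4.01 (3.67 to 4.39). A single cell held 91 of the control and 659 of the haplodeficient UMIs, and the log2 ratio was 1.95 with and 1.75 without these cells. Injured tubule cells had 210 and 337 CPM, and distal convoluted tubule cells 68.2 and 129 CPM. The last class had another makeup in each library: its Il1f6-led cluster held 389 of 559 control and 348 of 362 haplodeficient cells, with 92.03 and 134 CPM, and its Slc12a3-led cluster the other 170 and 14 cells. With equal cluster weights its log2 ratio was 0.50 in place of 0.87 for Cxcl2, 0.20 in place of 0.52 for Cxcl1 and 0.36 in place of 0.67 for Cxcl5. In these 4 classes the level was well above the Cxcl2 expected from free RNA, which was at most 10.9 CPM in the control against 41.0 in the haplodeficient library. The neutrophil markers summed to 62.6 and 87.7 CPM in thin limb and to 22.4 and 40.9 CPM in principal or connecting tubule, against 63940 and 75154 CPM in neutrophils.

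Free RNA, read from barcodes of 1 to 100 UMIs, held 147 CPM of Cxcl2 in the control against 783 CPM in the haplodeficient library, which touches the classes with little Cxcl2. In haplodeficient proximal tubule it accounted for an expected 21.8 of 37.1 CPM, and with it subtracted the log2 ratio there was -0.09 in place of 0.72. In haplodeficient endothelium it accounted for 46.3 of 60.1 CPM, and the log2 ratio was -1.08 in place of 0.43. The endothelial average joined unlike clusters. Arterial endothelium had 63.6 CPM of Cxcl2 on 30 UMIs and 315 CPM on 167 UMIs, 73 of them in 1 cell. The Gpr182-led cluster had 455 CPM on 53 UMIs, 50 of them in 1 cell, and 78.8 CPM on 11 UMIs.

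Cxcl5 was found in fewer cells, most of them epithelial, and had the largest ratio of any eligible pair of member and class. Thin limb cells had 13.5 CPM (10.8 to 16.7; 84 UMIs in 25 of 373 cells) in the control and 149 CPM (141 to 158; 1324 UMIs in 89 of 680 cells) in the haplodeficient library, a ratio of 11.03 (8.85 to 13.9). The most UMIs in any single thin limb cell were 9 in the control against 134 in the haplodeficient library, and without those cells the log2 ratio was 3.03 against 3.06 with them. Free RNA accounted for an expected 0.489 CPM in control and 1.64 CPM in haplodeficient thin limb. Principal or connecting tubule cells had 48.0 CPM (327 UMIs in 23 cells) and 116 CPM (854 UMIs in 67 cells), a ratio of 2.41 (2.12 to 2.75). Injured tubule cells had 10.5 CPM (90 UMIs in 28 of 499 cells) and 67.2 CPM (302 UMIs in 19 of 259 cells), a ratio of 6.41 (5.05 to 8.20), with 113 of the 302 UMIs in 1 cell. Thick ascending limb, the salt-reabsorbing diluting segment, had 22.0 and 35.4 CPM, and distal convoluted tubule 16.4 and 29.1 CPM.

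Proximal tubule, in which Cxcl1 was high, had almost no Cxcl5, with 16 UMIs over 3069 control cells (0.424 CPM) and 1 UMI over 379 haplodeficient cells (0.241 CPM). Endothelial cells had 0 UMIs in both libraries, which allows up to 1.36 CPM in the control against 0.66 CPM in the haplodeficient library, and neutrophils had 0 UMIs, which allows up to 18.2 and 2.54 CPM. Outside the tubule, single cells decided the values. Control fibroblasts had 37 UMIs in 5 cells, 25 of them in 1 cell, and haplodeficient fibroblasts had 1 UMI. Macrophages had 95 and 77 UMIs, of which 93 and 74 were in the dividing cluster and 64 and 59 in 1 cell of each library.

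**Figure D2:**
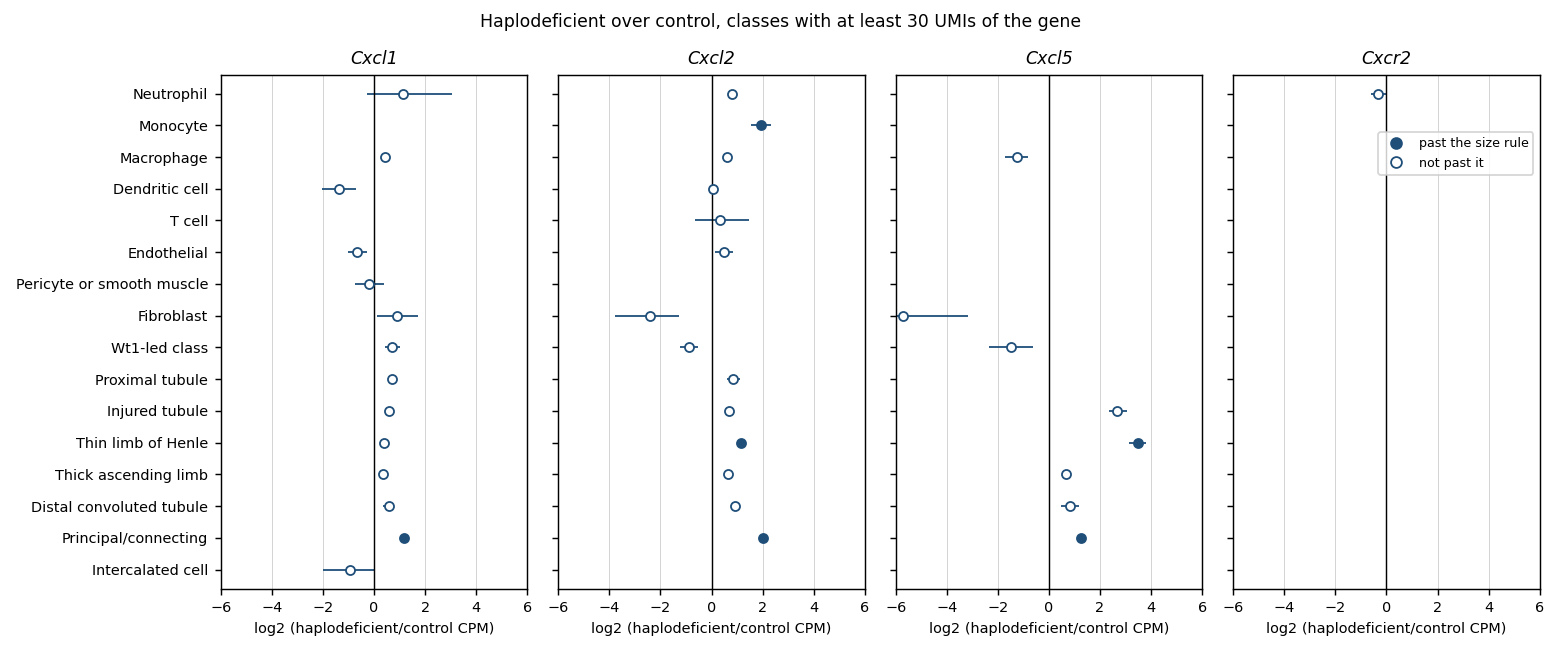
Log2 ratio of haplodeficient over control CPM (nothing added) for each gene in classes with at least 30 UMIs of it and some in both libraries; bars are exact conditional binomial 95% intervals, filled points are past the size rule, and the lower bound of Cxcl5 in fibroblasts lies beyond the axis. Filled points are Cxcl1, Cxcl2 and Cxcl5 in principal or connecting tubule, Cxcl2 and Cxcl5 in thin limb, and Cxcl2 in monocytes.

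A size rule served to set the genes against all others of a class. A gene passed it with a log2 ratio of at least 1 in either direction after adding 5 CPM and with Poisson intervals that did not overlap, among genes averaging 50 CPM or more with 30 UMIs or more in sum. In thin limb, 0.447% of 3801 genes passed toward the haplodeficient library, and of the members Cxcl2 (log2 1.12) and Cxcl5 (3.06) did. In principal or connecting tubule, 0.97% of 3712 genes passed toward the haplodeficient library, and all 3 ligands did (Cxcl1 1.10, Cxcl2 1.95, Cxcl5 1.19). In monocytes, 1.89% of 3275 genes passed in that direction, Cxcl2 (1.90) among them. Those 6 pairs of gene and class were all that passed, with none toward the control. Eligible classes numbered 8 for Cxcl1, 11 for Cxcl2, 2 for Cxcl5 and 1 for Cxcr2. Cxcl5 in injured tubule (2.22) had too low a mean to be eligible. So had Cxcl5 (-3.40) and Cxcl2 (-1.93) in fibroblasts, Cxcl1 in dendritic cells (-1.11) and Cxcl5 in the Wt1-led class (-1.08). These last pairs ran toward the control, with Poisson intervals that did not overlap. The call of Cxcl2 in thin limb was lost with cells of at least 1000 UMIs (0.88) and with doublets kept (0.97). That of Cxcl1 in principal or connecting tubule was lost at a mitochondrial limit of 25% (0.80) and with each library clustered on its own (0.85), with equal weight per cell (0.81) and without the single cell with most UMIs of the gene in each library (0.95).

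Counted by the ratio interval alone, over classes with at least 30 UMIs of the gene, Cxcl1 was above 1 in 9 of 14 classes and below 1 in 2, Cxcl2 in 10 and 2 of 14, and Cxcl5 in 5 and 3 of 8. Over all pairs of gene and compared class with as many UMIs, 17.9% had an interval above 1 and 15.6% one below 1. By class, the share above 1 ran from 7.3% to 37.4% and the share below 1 from 6.43% to 24.2%. Thick ascending limb is one of the classes with all 3 ligands above 1 (27.1 and 34.6 CPM for Cxcl1, 58.7 and 92.7 CPM for Cxcl2). In that class 30% of all genes with as many UMIs had an interval above 1. There the direction did not hold with each library clustered on its own, with log2 ratios of -0.75 for Cxcl1, -1.33 for Cxcl2 and -1.46 for Cxcl5.

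Most UMIs of each ligand sat in a small share of the cells of a class. The 5% of thin limb cells with most UMIs of the gene held 50.6% (control) and 56.1% (haplodeficient) of its Cxcl1, 71.3% and 69.5% of its Cxcl2, and 92.9% and 89.0% of its Cxcl5. In neutrophils the same share of cells held 23.7% and 20.6% of Cxcl2. UMIs clumped in this way are not independent, so the counting intervals are too narrow for the ligands of tubule cells. Shares of cells with a UMI, after thinning each cell to 1000 UMIs, give the view by cells.

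**Figure D3:**
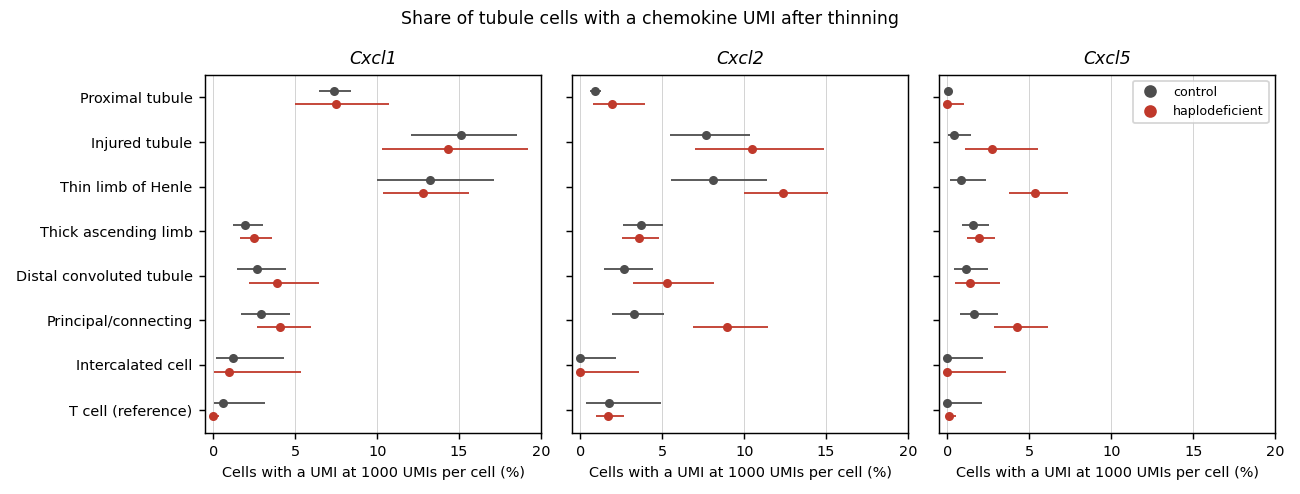
Share of tubule cells with at least 1 UMI of each ligand after each cell was thinned to 1000 UMIs, with exact Clopper-Pearson 95% intervals, for the control (grey) and haplodeficient (red) library; T cells are the reference class. Cxcl1 shares of thin limb and injured tubule cells lie within each other's intervals, and Cxcl2 in principal or connecting tubule and Cxcl5 in thin limb have higher shares in the haplodeficient library, with intervals apart.

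By cells, Cxcl1 was close between the libraries in the 3 tubule classes with most of it. It was found in 15.1% and 14.3% of injured tubule cells, 13.2% and 12.8% of thin limb cells, and 7.39% and 7.48% of proximal tubule cells of the control and haplodeficient library. In endothelium the shares were 4.04% (2.17 to 6.80) and 3.56% (2.34 to 5.18). In principal or connecting tubule they were 2.91% (1.67 to 4.68) and 4.09% (2.69 to 5.93), with overlapping intervals. Shares differed more, with overlapping intervals, in dendritic cells (3.37% and 0.392%), fibroblasts (0.885% and 5.17%) and the Wt1-led class (5.62% and 9.81%). In T cells, the reference that should lack the ligands, it was found in 0.571% and 0% (0 of 1021 cells). Cxcl2 was found in 3.27% of principal or connecting tubule cells in the control (1.95 to 5.12) and 8.96% in the haplodeficient library (6.86 to 11.5). In thin limb its shares were 8.11% (5.54 to 11.4) and 12.4% (9.97 to 15.1), with overlapping intervals. T cells had Cxcl2 in 1.71% and 1.67%. Cxcl2 in proximal tubule, at 0.863% and 1.94%, was no higher than in T cells beyond counting error. In monocytes, where Cxcl2 passed the size rule, its shares were close, at 20.8% (10.8 to 34.1) and 22.6% (18.5 to 27.2). Neutrophils (87.5% and 87.0%) and macrophages (47.3% and 51.4%) also had overlapping intervals for Cxcl2. Cxcl5 was found in 0.811% of thin limb cells in the control (0.168 to 2.35) and 5.37% in the haplodeficient library (3.79 to 7.35). In principal or connecting tubule its shares were 1.64% (0.751 to 3.08) and 4.25% (2.82 to 6.12), with overlapping intervals. T cells had Cxcl5 in 0% and 0.0979%. Without thinning, Cxcl5 was found in 6.70% and 13.1% of thin limb cells, whose median depth was 10156 and 8343 UMIs. Median depth in T cells was 2696 and 2579 UMIs.

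Cells of thin limb and of principal or connecting tubule also differed in their own markers. Aqp2, the vasopressin-regulated water channel of principal cells, had 1272 CPM in the control against 203 in the haplodeficient library, and Aqp3 330 and 47.8 CPM, the largest differences among 10 markers checked there. Of the 10, 9 were lower and 1, Fxyd4, higher (1457 and 1683 CPM), and Hsd11b2 stood at 1772 and 1134 CPM. Aqp1, a water channel of the descending thin limb, had 243 and 76.7 CPM. Of 8 thin limb markers checked, 7 were lower and 1, Bst1, higher (261 and 282 CPM), and Cryab (2541 and 2315 CPM) and Cldn4 (353 and 335 CPM) were nearly level. Lcn2, a secreted iron-carrier binding protein made by injured distal tubule, had 866 and 1842 CPM in thin limb (log2 1.08, past the size rule) and 2812 and 4582 CPM in principal or connecting tubule. Of the 16 early stress genes that cell dissociation can induce, 0 of 15 eligible ones passed the size rule in thin limb, where 1.47% of all genes did in either direction (median log2 -0.17, beside -0.02 for all eligible genes). In principal or connecting tubule 1 of 16, Socs3, passed toward the control, where 1.45% of all genes did (median 0.0031 beside 0.014). In proximal tubule 6 of 12 passed toward the haplodeficient library, where 1.75% of all genes did, with Atf3 at 83.8 and 309 CPM and Fos at 801 and 1703 CPM. Cxcl1 is itself an early response gene, and the part of dissociation in its proximal tubule level was not tested.

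**Figure D4:**
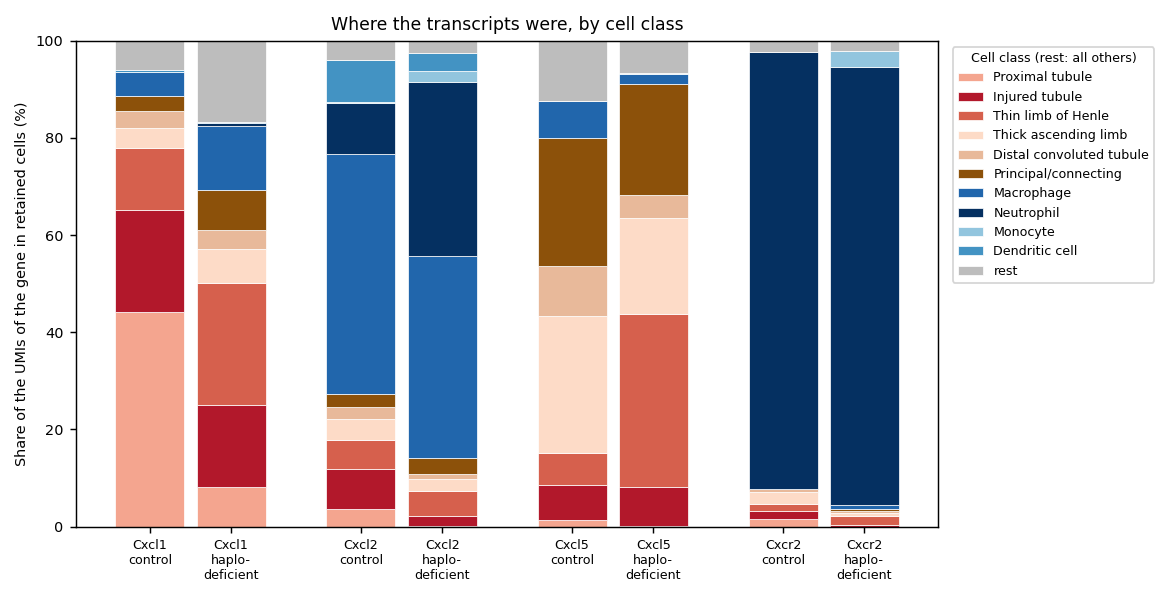
Share of the UMIs of each gene in retained cells (percent, stacked to 100) held by each cell class in the control and haplodeficient library. Cxcl1 moves from proximal tubule to thin limb and macrophage, the neutrophil share of Cxcl2 is larger in the haplodeficient library, the thin limb share of Cxcl5 likewise, and Cxcr2 is in neutrophils in both.

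The cells that held each transcript changed with the level and with the makeup of the library. Tubule classes held 89.0% of the Cxcl1 UMIs in the control against 69.3% in the haplodeficient library. Proximal tubule alone held 44.2% and 8.16%, thin limb 12.9% and 25.1%, and macrophages 4.84% and 13.2%. For Cxcl2, macrophages held 49.4% and 41.4%, neutrophils 10.3% and 35.8%, and tubule classes 27.4% and 14.2%. For Cxcl5, tubule classes held 80.5% and 91.3%, with thin limb at 6.73% in the control against 35.5% in the haplodeficient library, and thick ascending limb at 28.0% and 19.9%. The exact binomial 95% interval of the thin limb share of Cxcl5 ran from 5.40% to 8.27% for control UMIs and from 34.0% to 37.1% for haplodeficient UMIs.

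Cells with 2 ligands were counted within a class. At 1000 UMIs per cell, Cxcl2 was found in 32 of 86 haplodeficient thin limb cells with Cxcl1 (37.2%, 27.0 to 48.3) and in 51 of 585 without it (8.72%, 6.56 to 11.3). In control thin limb it was found in 16 of 49 cells with Cxcl1 (32.7%) and 14 of 321 without (4.36%). In haplodeficient principal or connecting tubule the counts were 15 of 26 with Cxcl1 (57.7%) and 42 of 610 without (6.89%). In proximal tubule few cells had both, 6 of 214 control cells with Cxcl1 (2.80%) and 19 of 2682 without (0.708%). Cxcl5 joined Cxcl2 in 22 of 83 haplodeficient thin limb cells (26.5%) against 14 of 588 without Cxcl2 (2.38%). In macrophages, 57 of 62 haplodeficient cells with Cxcl1 also had Cxcl2 (91.9%), against 606 of 1228 without Cxcl1 (49.3%). In haplodeficient thick ascending limb, Cxcl2 was found in 9 of 27 cells with Cxcl1 (33.3%) and 30 of 1071 without (2.80%). Cxcl5 was found there in 6 of 27 cells with Cxcl1 (22.2%) and 15 of 1071 without (1.40%). In some classes the cells with a ligand were too few to tell whether a pair shared cells in this way. Haplodeficient endothelium had Cxcl2 in 0 of 26 cells with Cxcl1 (interval 0 to 13.2%) and 14 of 704 without (1.99%). Control injured tubule had Cxcl5 in 0 of 75 cells with Cxcl1 (interval 0 to 4.80%) and 2 of 422 without (0.474%). In haplodeficient injured tubule these counts were 4 of 37 (10.8%) and 3 of 221 (1.36%). Haplodeficient macrophages had Cxcl5 in 1 of 663 cells with Cxcl2 and 1 of 627 without. Cells of 1 library are not replicates, so these shares describe the libraries.

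Cxcr2 was a neutrophil transcript. Neutrophils held 115 of its 128 UMIs in the control (89.8%) and 657 of 729 in the haplodeficient library (90.1%). Per neutrophil RNA it was lower in the haplodeficient library, at 697 CPM (575 to 836) against 556 CPM (515 to 600), a ratio of 0.798 (0.654 to 0.982). At 1000 UMIs per cell it was found in 53.1% of 96 neutrophils in the control (42.7 to 63.4) and 35.4% of 571 in the haplodeficient library (31.5 to 39.5), where the shares without thinning were 60.2% and 50.9%. In proximal tubule, the reference that should lack it, it was found in 0 of 2896 and 0 of 361 cells. The other cells with Cxcr2 were few. Monocytes had 0 UMIs in the control, which allows up to 12.5 CPM, and 24 UMIs in 14 cells (13.1 CPM) in the haplodeficient library, and macrophages had 0 and 6 UMIs. Endothelial cells, in which CXCR2 has been described, had 1 and 6 UMIs. Cxcr1, the second receptor of the family, had 6 UMIs in control neutrophils (36.3 CPM) and 8 in haplodeficient ones (6.77 CPM).

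Neutrophils fell into 6 subclusters, formed without the 4 genes and given by number and leading genes. Subcluster 4, led by Retnlg, a gene of mature circulating neutrophils, had the most Ly6g, a surface marker of mature neutrophils, and held Cxcr2 at 987 CPM in the control against 1023 CPM in the haplodeficient library. In subcluster 1, led by Sirpb1c, Cxcr2 stood at 899 and 785 CPM, and in subcluster 2, led by Tex14, at 497 and 412 CPM. In subcluster 3, which had the most Ccl3 and Ccl4, it stood at 123 and 63.1 CPM. Subcluster 5, led by Cxcl14 and Hebp1, held 86 haplodeficient cells (13.9% of neutrophils) and 1 control cell (0.971%), and its haplodeficient cells had 390 CPM. Subcluster 6, with 3 control and 13 haplodeficient cells, had 1630 and 1545 CPM. Within subclusters 1 to 4 the Cxcr2 intervals of the libraries overlapped.

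Cxcl2 was lowest among these 4 in the Retnlg-led subcluster 4, where Cxcr2 was highest, at 4829 and 11715 CPM, and stood at 14916 and 31811 CPM in subcluster 1, 20236 and 29076 CPM in subcluster 2, and 16939 and 28437 CPM in subcluster 3. In each of the 4 it was higher in the haplodeficient library with intervals apart. The subclusters were drawn from these same cells, so their differences in defining genes are descriptions.

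**Figure D5:**
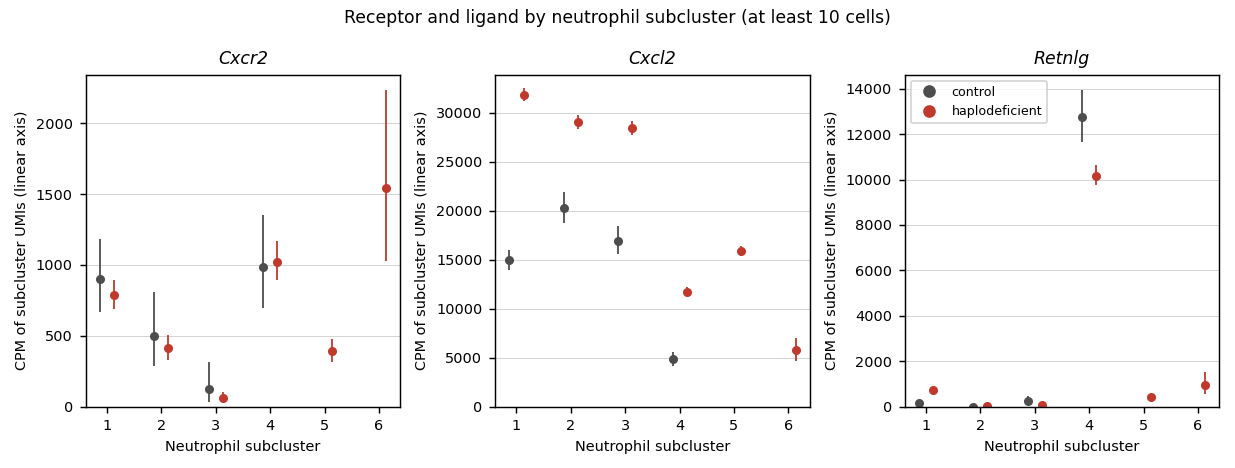
Levels of Cxcr2, Cxcl2 and Retnlg (CPM of subcluster UMIs, linear axes from 0) in neutrophil subclusters with at least 10 cells of a library, with exact Poisson 95% intervals; control is grey and haplodeficient red. Cxcr2 is lowest in subcluster 3 and Retnlg stands out in subcluster 4, and Cxcl2 is higher in the haplodeficient library in subclusters 1 to 4.

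Other neutrophil genes around the receptor were compared as lists. In neutrophils, 1.9% of 2897 eligible genes passed the size rule toward the haplodeficient library and 2.9% toward the control. Of 8 growth factor and chemoattractant receptors, all eligible, Ltb4r1, a receptor for leukotriene B4, passed toward the haplodeficient library (48.5 and 147 CPM, log2 1.51), and none passed toward the control. Csf3r, the G-CSF receptor, stood at 1829 and 1138 CPM, and Fpr2, a formyl peptide receptor, at 164 and 89.7 CPM. Of 6 adhesion and rolling genes none passed, and all 6 had log2 ratios below 0, with a median of -0.60 beside -0.08 for all eligible genes. Cd44, a hyaluronan receptor, stood at 1484 and 894 CPM. Of 7 eligible genes of CXCR2 signalling and desensitisation none passed, with a median of -0.20, and Grk2, a kinase that desensitises the receptor, stood at 248 and 157 CPM.

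Among the other chemokines of the family, Cxcl3, which also binds CXCR2, was highest in neutrophils, like Cxcl2. It stood at 164 and 295 CPM in neutrophils, and in the Gpnmb macrophage cluster at 14.3 CPM on 27 UMIs and 72.0 CPM on 396 UMIs. The Ccl12-led cluster had 9.94 and 3.23 CPM of Cxcl3, and the dividing cluster 34.0 CPM on 37 UMIs and 0 UMIs. Pf4, a platelet-type chemokine that does not act through CXCR2, stood at 198 and 324 CPM in macrophages. Ppbp was at most 2.73 CPM and Cxcl15 at most 0.677 CPM in any compared class. Ackr1, the endothelial scavenger and transporter of these chemokines, had 1 UMI in the endothelial cells of each library.

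Genes known to induce the ligands were compared as a list in neutrophils and T cells, and Il1a and Tnf are also given for macrophages and dendritic cells. Of the 8 listed inducers 7 were found by symbol. Il36g was not searched for under its older symbol, Il1f9, and is left out of the counts here. Il1f9 was in the data, highest in haplodeficient neutrophils at 380 CPM. In neutrophils 1 of 4 eligible passed toward the haplodeficient library, Il1a (182 and 493 CPM, log2 1.41), while Il1b stood at 10928 and 12610 CPM and Tnf at 466 and 750.1 CPM. Macrophages had 95.2 and 149 CPM of Il1a and 124 and 207 CPM of Tnf. Dendritic cells had less Il1a in the haplodeficient library, at 77.0 and 17.1 CPM, and more Tnf, at 42.8 and 70.8 CPM. In T cells, where 0.833% of 3123 genes passed toward the haplodeficient library, both eligible inducers did, Tnf (51.3 and 366 CPM, log2 2.72) and Il17a (225 and 549 CPM, log2 1.27). Il17a was concentrated in the Trdc-led T cell cluster, at 1050 CPM (95 UMIs, 23 cells) in the control and 3424 CPM (1275 UMIs, 118 cells) in the haplodeficient library. Of 10 eligible early stress genes in T cells 2 passed toward the haplodeficient library, Nr4a1 (68.9 and 196 CPM) and Fos (106 and 293 CPM), with a median log2 ratio of 0.56 beside -0.05 for all eligible genes, and their part in the cytokine levels was not tested.

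Lists of NF-κB and mRNA decay genes were compared in the tubule classes with more ligand, where 1.47% of all eligible genes in thin limb and 2.42% in principal or connecting tubule passed the size rule in either direction, so that counts of 0 in short lists are near the background. All eligible genes had a median of -0.018 on the log2 scale in thin limb and 0.014 in principal or connecting tubule. Of 6 eligible NF-κB factors and feedback genes in thin limb none passed the size rule and the median log2 ratio was -0.27. Nfkbia, the inhibitor that NF-κB itself induces, stood at 678 and 728 CPM. In principal or connecting tubule 0 of 6 passed (median -0.02), with Nfkbia at 380 and 582 CPM. Of the regulators of chemokine mRNA decay, 0 of 5 in thin limb (median -0.31) and 0 of 4 in principal or connecting tubule (median -0.36) passed. Zfp36, whose product promotes decay of AU-rich mRNAs such as those of the ligands, stood at 750 and 589 CPM in thin limb, 632 and 390 CPM in principal or connecting tubule, and 909 and 529 CPM in endothelium. Of the receptors and adaptors for the inducers, 1 of 10 was eligible in each of the 2 classes, Tnfrsf1a in thin limb (48.6 and 65.1 CPM) and Il1r1 in principal or connecting tubule (54.3 and 72.5 CPM). Of 6 eligible endothelial adhesion genes for neutrophils 0 passed in endothelial cells, near the 1.05% of 3728 genes that did in either direction, with Selp, encoding P-selectin, at 89.9 and 73.2 CPM and Icam1 at 236 and 218 CPM.

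The genes whose levels ran most like each member were taken over 33 profiles of a class in a library with at least 50 cells, among 5627 genes. For Cxcl2 they were Il1rn (Pearson r 0.92), Cd14 (0.91), Basp1 (0.88), Tlr2 (0.87) and Nlrp3 (0.87), several of them genes of innate sensing. For Cxcl5 they were Cdh3 (0.83), Klf5 (0.79), Krt18 (0.78), Ccl20 (0.78) and Efemp1 (0.78), epithelial genes for the most part. For Cxcr2 they were the neutrophil genes Retnlg (0.999), Stfa2l1, Il1f9, Entpd3 and Nlrp12 (0.99). Outside the neutrophil profiles Cxcr2 was at most 13.1 CPM, so any gene confined to neutrophils would reach such values. Retnlg was also a marker used to name the neutrophil class. For Cxcl1 the closest was Hist1h2bc (0.81), followed, among others, by Gkap1, St13 and Ctsl. Cxcl1 itself correlated with Cxcl5 at 0.49 and with Cxcl2 at 0.12. The profiles share 2 libraries, so these values are descriptions.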

How the data were processed

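Both libraries were made with 10x 3′ chemistry. The deposited files hold raw UMI counts per gene and barcode, unfiltered, written by the authors with Cell Ranger 4 per the file headers, on mm10 per the submitters' processing notes. The annotation release is not given in the sources used here. The control held 134190236 and the haplodeficient library 114668145 UMIs in all barcodes.

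Barcodes with at least 500 UMIs, 200 genes and at most 50% mitochondrial UMIs were kept, and the barcodes with the highest Scrublet scores (scanpy 1.11.5) were removed as likely doublets, their number set by an expected 0.8% per 1000 cells (7.56% of control and 8.02% of haplodeficient barcodes). Counts were log-normalised and both libraries clustered together with leidenalg 0.10.2 (2000 variable genes without the 4 members, 30 components, 15 neighbours, resolution 1). A cluster was named from at least 3 listed markers, each in 10% of its cells and 2-fold above the other cells. Clusters led by another class's markers, or deep with markers of more than one, stayed unnamed after a second clustering (3.99% and 3.49% of cells). Endothelial cells were clustered once more. The Wt1-led class was renamed after its values were seen.

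UMIs were summed per class and library and given as CPM with exact Poisson 95% intervals, ratios with exact conditional binomial intervals, and shares with Clopper-Pearson intervals. A 0 was read as allowing up to 3 UMIs. Intervals and floors cover counting error only. log2 ratios add 5 CPM. The named genes were the 4 members, the most changed eligible genes of 11 fixed lists, and the 5 genes most like each member. A few more markers and listed genes (Aqp2, Aqp3, Aqp1, Fxyd4, Hsd11b2, Bst1, Cryab, Cldn4, Nphs1, Nfkbia, Icam1, Selp, Ackr1, Ppbp and Cxcl15) were chosen after their values were seen. The members and lists were chosen with earlier results of these data known. A few genes that these rules name are not reported here. The size rule was tested on simulated data. 10 planned and 3 added alternatives were run.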

Additional observations from a re-analysis of the deposited data

Results flagged for a closer look

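RNA in barcodes with 1 to 100 UMIs, which hold few or no whole cells, carried more of 3 of the 4 genes in the haplodeficient library than in the control. Cxcl2 stood there at 783 CPM against 147, Cxcl5 at 32.0 CPM against 7.07, and Cxcr2 at 6.0 CPM against 0.471. Cxcl1 stood at 90.2 CPM against 105.

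Some classes ran opposite to the classes in which a ligand was higher in the haplodeficient library. For Cxcl1 the log2 ratio was -1.11 in dendritic cells and -0.59 in endothelial cells. For Cxcl2 it was -1.93 in fibroblasts and -0.84 in the Wt1-led class, and for Cxcl5 it was -3.40 in fibroblasts, -0.87 in macrophages and -1.08 in the Wt1-led class. The difference between classes was not tested. Without the single cell with most UMIs of the gene in each library, the Wt1-led class stood at 0.69 for Cxcl2 and 0.24 for Cxcl5, and with doublets kept the fibroblasts stood at 1.34 for Cxcl2.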

How the results depend on the processing

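No paired analysis was possible because each group is 1 library, and for the same reason no replicate could be left out. Library-wide log2 ratios as given were 0.14 for Cxcl1, 2.01 for Cxcl2, 1.43 for Cxcl5 and 1.04 for Cxcr2. At the mean class makeup they were 0.56, 0.73, 1.10 and -0.081. With equal weight per cell they were -0.032, 2.41, 1.27 and 1.73. At a mitochondrial limit of 25%, Cxcl1, Cxcl2 and Cxcl5 stood at 0.050, 1.76 and 1.24, and under median-of-ratios scaling at -0.061, 1.80 and 1.24. With doublets kept, Cxcl2 and Cxcl5 stood at 1.97 and 1.28, and with 1 CPM added Cxcl5 and Cxcr2 stood at 1.69 and 2.00. The 6 pairs of gene and class past the size rule became 12 with doublets kept, 11 at Leiden resolution 2 and 13 with each library clustered on its own. The cause was not tested. With genes eligible at 10 CPM the 6 became 11, as the pairs named above as too low in mean were then eligible. Of those added pairs, only Cxcl5 in injured tubule was higher in the haplodeficient library.

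By class, 281 of 401 log2 ratios stayed within the counting interval of the value as given. Cxcl5 in thin limb ranged from 2.50 to 3.37, Cxcl5 in principal or connecting tubule from 1.02 to 1.46, Cxcl2 there from 1.40 to 2.01 and Cxcl2 in monocytes from 1.45 to 2.33. Cxcl1 in intercalated cells stood at -0.72 as given and between 1.23 and 3.38 under 5 alternatives that change which cells form the class. Injured tubule was not found as a class at a mitochondrial limit of 25% or with each library clustered on its own. Counts of genes past the size rule moved by over 1.5 times with eligibility at 10 CPM, from 56 to 151 in thin limb, 90 to 177 in principal or connecting tubule, 129 to 214 in monocytes, 76 to 209 in T cells, 96 to 217 in proximal tubule, 39 to 117 in endothelium, 45 to 130 in injured tubule, 30 to 101 in macrophages, 44 to 95 in thick ascending limb, 55 to 163 in dendritic cells, 55 to 123 in distal convoluted tubule, 94 to 213 in fibroblasts, 86 to 218 in intercalated cells, 34 to 125 in pericytes and 34 to 155 in the Wt1-led class. Clustered on their own, the counts were 150 in dendritic cells, 420 in proximal tubule and 273 in intercalated cells. Intercalated cells had 20 at the 25% limit, 27 with doublets kept and 39 at resolution 2, distal convoluted tubule had 29 at the 25% limit, and pericytes had 64 with doublets kept. Equal weight per cell, leaving out the cell with most UMIs and equal cluster weights were chosen after seeing the data.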
